A study of Homo sapiens with 4 samples.

Results

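The genes described here are 10 marker genes of the epithelial or the mesenchymal state of a cell: the keratins KRT8, KRT18, KRT19 and KRT5, the cadherins CDH1 and CDH2, the adhesion molecule EPCAM, the claudins CLDN3 and CLDN4, and the mesenchymal filament gene VIM. They were chosen by name, as the rows of the count table with these gene names, out of 60606 genes in the table. All 10 were found, 8 had enough counts to be tested, and the remaining 2, KRT5 and CDH2, had 0 counts in every library. Between cells with and without knockdown of LOC730101, 0 of the 8 tested genes differed past an adjusted p of 0.05 in edgeR, a threshold that 0.212% of all genes tested passed as higher and 0.0724% as lower.

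Keratins build the intermediate filaments of epithelial cells as pairs of a type I and a type II chain. KRT8 (type II) and KRT18 (type I) form the pair of simple and luminal epithelium, KRT19 is a further type I keratin of such cells, and KRT5 is the type II keratin of basal cells, including those of the prostate gland. CDH1 encodes E-cadherin, which joins epithelial cells at adherens junctions through the catenins. Claudins seal the space between cells at tight junctions, and EPCAM is an adhesion glycoprotein of the epithelial surface. CDH2 (N-cadherin) and VIM (vimentin) are read in their place in mesenchymal cells, and the exchange of one set for the other is how epithelial-mesenchymal transition is usually followed.

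RNA was sequenced from DaroR cells, a derivative of the prostate cancer line LNCaP that had been selected in rising doses of the antiandrogen darolutamide and was then kept in the drug. LNCaP is a line from a prostate cancer metastasis. One group of 2 libraries came from cells transfected with control siRNA (siControl), and the other group of 2 libraries came from cells transfected with a pool of siRNAs against the lncRNA LOC730101 (siLOC730101). Both groups therefore share the resistant background, which is a single selected line, and parental LNCaP cells were not analysed here. The libraries held from 39213498 to 53368158 counts. LOC730101, which appears in the table under ENSG00000216775 (chromosome 6, GRCh38, from 52664366 to 52669155), had 2560 and 2370 counts with control siRNA and 633 and 680 with siLOC730101, a reduction of 66.0% in normalized CPM (log2 fold change -1.56, ± 0.12 SE, edgeR adjusted p = 4.34e-06). Values in CPM, the counts scaled to a common library size, use the TMM factors of edgeR, and values per kilobase were divided by gene length in addition. The p-values were adjusted by Benjamini-Hochberg across all 19349 genes tested. The labels do not say whether the 2 libraries of a group came from separate cultures, so the p-values measure the spread between these libraries, which may be technical. The table counts RNA of whole cultures, in which fewer cells of a kind and less RNA per cell cannot be told apart.

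The label of a luminal prostate line was checked against marker genes. All 8 luminal markers of LNCaP were read at high levels, among them KLK3 (376.0 CPM per kilobase, mean of the 4 libraries) and HOXB13 (130.1), and their summed level ranged from 8170 to 9080 CPM in siControl and from 8777 to 8798 CPM in siLOC730101. The summed level of 6 basal markers ranged from 3.57 to 3.70 CPM in siControl and from 3.33 to 3.77 CPM in siLOC730101, with the basal regulator TP63 and KRT5 at 0 counts in all libraries. Fibroblast markers summed to between 13.9 and 18.0 CPM in siControl and to between 14.8 and 15.1 CPM in siLOC730101, all of it from COL1A1 and COL3A1 but for 2 counts of DCN, with LUM, PDGFRA and COL1A2 at 0 counts. Endothelial markers summed to between 7.03 and 9.44 CPM in siControl and to between 6.30 and 7.38 CPM in siLOC730101. Of these 5 markers CDH5 alone had 0 counts in all libraries, and 2 had enough counts to be tested. Leukocyte markers summed to between 0.166 and 0.278 CPM in siControl and to between 0.053 and 0.097 CPM in siLOC730101, and PTPRC and CD3E were at 0 counts. None of the markers in these lists passed an adjusted p of 0.05 between the groups in edgeR, and 2 of them, both luminal markers, had an unadjusted p under 0.05.

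KRT8, the type II chain of the luminal pair, lies on chromosome 12 of GRCh38 from 52897187 to 52949954 on the minus strand. Its counts were 30002 and 25187 with control siRNA and 24370 and 24577 with siLOC730101, or 555 and 538 CPM against 593 and 647 CPM. Both siLOC730101 libraries lay above both siControl libraries, and siLOC730101 replicate 2 was the highest. The mean was 546.6 ± 11.9 CPM (SD, n = 2) in siControl and 620.3 ± 38.3 CPM (SD, n = 2) in siLOC730101. The log2 fold change was 0.18 (± 0.072 SE, edgeR adjusted p = 0.338), and its 95% interval reached from 0.029 to 0.34, a level between 1.02 and 1.26 times that of siControl. KRT8 was the only gene of the 8 with an unadjusted p under 0.05 (edgeR quasi-likelihood p = 0.0227, not an exact test), a level that 10.8% of all genes tested reached. Its adjusted p fell to 0.00782 in edgeR without siLOC730101 replicate 1, with a log2 fold change of 0.25, and was 0.762 without siLOC730101 replicate 2, with a log2 fold change of 0.12. Leaving out siLOC730101 replicate 1 also raised the number of genes called across the whole table, from 41 to 923 higher and from 14 to 272 lower, which is 5.56% of the genes tested in that fit. A fit without 1 library has a single library in that group, which is assumed to vary like the 2 libraries of the other group.

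KRT18, the type I partner of KRT8, lies beside it on chromosome 12 from 52948871 to 52952906 on the plus strand. Its counts were 18077 and 15664 with control siRNA and 14266 and 14389 with siLOC730101, which is 334.4 and 334.7 CPM against 347 and 379 CPM. The siControl libraries were nearly equal, both siLOC730101 libraries were above them, and siLOC730101 replicate 2 was again the highest. The log2 fold change of 0.12 (standard error 0.074) did not pass the threshold (edgeR adjusted p = 0.609), and its 95% interval reached from -0.039 to 0.28. The counts of KRT8 were 1.66 and 1.61 times those of KRT18 in siControl and 1.71 times in both siLOC730101 libraries. A ratio of 2 genes within a library does not depend on how libraries are scaled.

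The spans of KRT8 and KRT18 share 1084 bases on opposite strands, and 525 exon bases belong to both genes, which is 17.1% of the exon length of KRT18 and 7.63% of that of KRT8. The counting command has no strand or overlap option, and by the default of featureCounts reads that touch both genes are assigned to neither, so the level of each is a lower limit there. Both keratins also have many processed copies in the genome. The table lists 51 copies of KRT8, of which 17 had any counts, and 67 copies of KRT18, of which 19 had any counts. The copies of KRT8 held 737 and 630 counts with control siRNA and 606 and 597 with siLOC730101, between 2.43% and 2.50% of the counts of KRT8, and most of these were on KRT8P12 on chromosome 3 (535, 460, 482 and 448 counts). The summed level of the KRT8 copies was 13.6 and 13.5 CPM in siControl and 14.7 and 15.7 CPM in siLOC730101. The copies of KRT18 held 196 and 193 counts in siControl and 93 counts in each siLOC730101 library, a summed level of 3.63 and 4.12 CPM against 2.26 and 2.45 CPM. The summed level of the KRT18 copies was thus lower in both siLOC730101 libraries, while KRT18 itself was higher in both, and this sum was not tested. KRT18P61 alone, which was not tested, had 5 and 42 counts in siControl and 0 and 3 in siLOC730101. No single copy passed an adjusted p of 0.05 in edgeR (5 copies of KRT8 and 5 of KRT18 were tested), with KRT18P59 at a log2 fold change of -0.32 and KRT18P34 at -0.45. Reads placed on such copies are uncertain where a copy resembles its parent, and the likeness of their sequences was not measured. With the copies added to the parents, the log2 fold change was 0.18 for KRT8 and 0.11 for KRT18.

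KRT19, on chromosome 17 from 41523617 to 41528308, was read at a trace. Its counts were 22 and 20 with control siRNA and 44 and 20 with siLOC730101, which is 0.407 and 0.427 CPM against 1.07 and 0.527 CPM. The high value came from siLOC730101 replicate 1, while siLOC730101 replicate 2 lay close above the siControl libraries. The log2 fold change of 0.94 had a standard error of 0.71 and a 95% interval from -0.58 to 2.45 (edgeR adjusted p = 0.702), and it was 0.34 without siLOC730101 replicate 1. A change of KRT19 was not detectable at this depth. The other simple keratins of the list were also at traces per length, beside 0.260 for KRT19, with KRT20 at 0.302 CPM per kilobase, KRT7 at 0.034 and KRT23 at 0 counts.

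KRT5, the basal keratin, lies on chromosome 12 from 52514575 to 52520530 and had 0 counts in all 4 libraries. If counts are independent, this allows up to 3 counts, or 0.055 to 0.079 CPM depending on the library. Per kilobase of exon, KRT8 was at least 4879-fold higher than KRT5 in each library, computed against that limit of 3 counts per library. These limits cover counting error only. Mates appear to be counted apart, so the limits are too low, and the fold too high, where both mates of a fragment were counted. The other basal and stratified keratins were also near 0, since KRT14 had between 8 and 24 counts per library, KRT6B between 7 and 16, and KRT13 and KRT17 had 0 counts in all libraries. The keratin filament transcripts of these cells were thus almost entirely KRT8 and KRT18 among the 14 keratins examined.

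CDH1, which encodes E-cadherin, lies on chromosome 16 from 68737292 to 68835537 on the plus strand, and it had the most counts of the 10 genes. Its counts were 47990 and 39598 with control siRNA and 33640 and 29975 with siLOC730101, which is 888 and 846 CPM against 819 and 789.5 CPM. Both siLOC730101 libraries lay below both siControl libraries, though the gap of the groups was no wider than the gap within a group. The mean was 866.9 ± 29.5 CPM (SD, n = 2) in siControl and 804.2 ± 20.7 CPM (SD, n = 2) in siLOC730101. The log2 fold change was -0.11 (± 0.068 SE, edgeR adjusted p = 0.613), with a 95% interval from -0.25 to 0.036, or 0.84 to 1.03 times the level of siControl. It stayed between -0.15 and -0.072 over the 15 alternative analyses, in none of which it passed the threshold, with adjusted p-values from 0.354 to 0.896 (edgeR or DESeq2). An unnamed antisense gene of the table shares 5.71% of the exon bases of CDH1. Reads of the strands were not separated there, and those that touch both genes are by default assigned to neither.

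CDH2, which encodes N-cadherin, lies on chromosome 18 from 27932879 to 28177946 and had 0 counts in all 4 libraries. Per kilobase of exon, CDH1 was at least 14114-fold higher than CDH2 in each library, against the limit of 3 counts per library. This fold is too high as well where both mates of a fragment were counted. No exchange of one cadherin for the other was detectable at this depth, and the P-cadherin gene CDH3 had 6 counts in siControl replicate 1 and 0 in the remaining libraries. VIM, the filament gene of mesenchymal cells, lies on chromosome 10 from 17228241 to 17237593 and was read at a low level. It had 155 and 109 counts with control siRNA and 143 in each siLOC730101 library, which is 2.87 and 2.33 CPM against 3.48 and 3.77 CPM. Both siLOC730101 libraries were above both siControl libraries, with a log2 fold change of 0.48 (± 0.29 SE, edgeR adjusted p = 0.599). Its 95% interval was wide, from -0.14 to 1.10, so that a level of up to 2.14 times that of siControl is inside it. In both groups KRT8 had between 170.4 and 231.1 times the counts of VIM. Antisense genes, VIM-AS1 among them, share 24.6% of the exon bases of VIM. Reads that touch VIM and such a gene are by default assigned to neither, so the level of VIM is a lower limit there.

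EPCAM, on chromosome 2 from 47345158 to 47387601, differed least between libraries of the 8 tested genes. Its counts were 14379 and 12720 with control siRNA and 11115 and 10771 with siLOC730101, which is 266 and 272 CPM against 271 and 284 CPM. The groups overlapped, with siLOC730101 replicate 1 between the siControl libraries. The log2 fold change was 0.044 (± 0.073 SE, edgeR adjusted p = 0.898), and its 95% interval, from -0.11 to 0.20, leaves room for a level of 0.93 to 1.15 times that of siControl.

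The claudin genes CLDN3 and CLDN4 are neighbours on chromosome 7, with CLDN3 on the minus strand from 73768997 to 73770270, CLDN4 on the plus strand from 73799542 to 73832690, and 29271 bases between their spans. CLDN3 had 6548 and 5265 counts with control siRNA and 4387 and 4956 with siLOC730101, which is 121 and 112 CPM against 107 and 131 CPM. The siLOC730101 libraries lay on either side of the siControl libraries, as replicate 1 was the lowest and replicate 2 the highest of all. CLDN4 had 12462 and 11381 counts with control siRNA and 9130 and 9466 with siLOC730101, which is 231 and 243 CPM against 222 and 249 CPM. It showed the same arrangement, with siLOC730101 replicate 1 the lowest and replicate 2 the highest. The log2 fold change was 0.022 (± 0.096 SE, edgeR adjusted p = 0.967) for CLDN3 and -0.0065 (± 0.079 SE, edgeR adjusted p = 0.991) for CLDN4. The 95% intervals reached from -0.18 to 0.23 for CLDN3 and from -0.18 to 0.16 for CLDN4. The sign of either claudin depended on which library was left out, and that of CLDN3 also on the scaling (-0.010 with upper-quartile factors and -0.018 with library size only), so neither has a direction in these data.

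**Figure D1:**
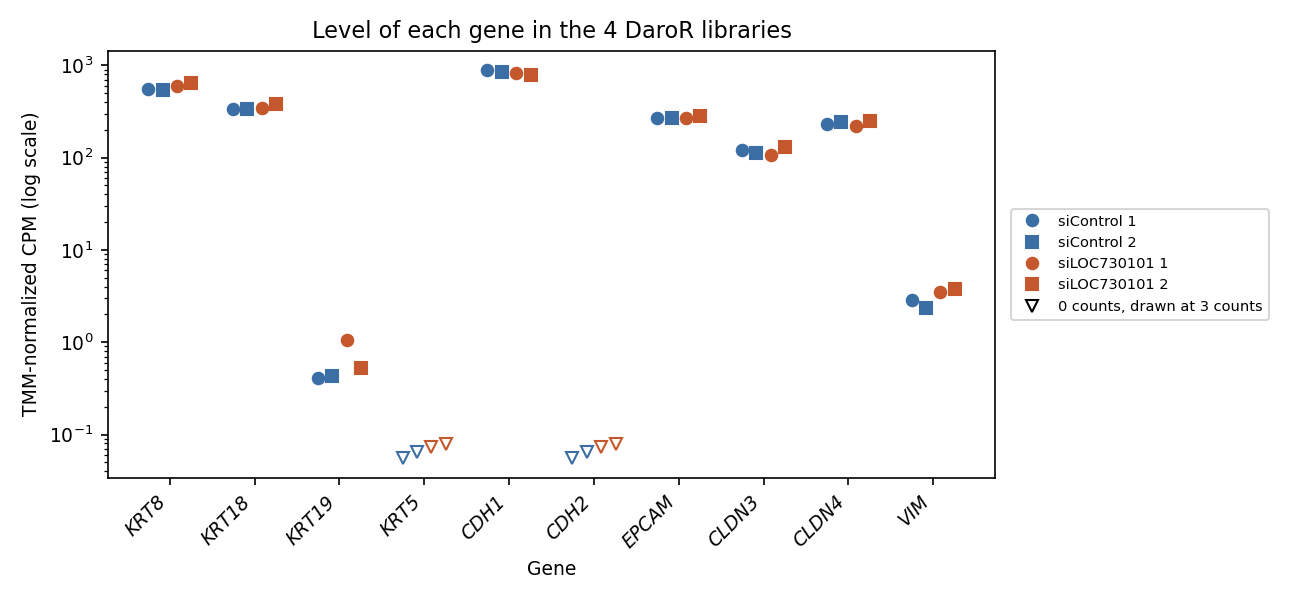
Level of the 10 genes in each library, as TMM-normalized CPM on a log axis, with siControl in blue, siLOC730101 in orange, replicate 1 as a circle and replicate 2 as a square. Open triangles stand at 3 counts for the genes with 0 counts. KRT8, KRT18, CDH1, EPCAM, CLDN3 and CLDN4 lie above 100 CPM in all libraries, VIM between 2.33 and 3.77 CPM, KRT19 near 1 CPM or below, and KRT5 and CDH2 at 0 counts.

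The start regions of the claudin pair, both read, and of KRT5 and CDH2, both at 0 counts, are shown to set their sequences side by side. The sequences are the RefSeq promoter windows of GRCh38.p14, from 250 bases before to 50 bases after a transcript start, on the strand of the gene, and 6 of the 10 genes have such a window in the table used. Capitals mark the E-box CAGGTG, or CACCTG on the other strand, the motif bound by the SNAIL and ZEB repressors of epithelial genes. The window of CLDN3 is chr7:73770221-73770520 (minus strand), that of CLDN4 is chr7:73830746-73831045 (plus strand), that of KRT5 is chr12:52520345-52520644 (minus strand), and that of CDH2, the outer of its 2 windows, is chr18:28177081-28177380 (minus strand).
CLDN3: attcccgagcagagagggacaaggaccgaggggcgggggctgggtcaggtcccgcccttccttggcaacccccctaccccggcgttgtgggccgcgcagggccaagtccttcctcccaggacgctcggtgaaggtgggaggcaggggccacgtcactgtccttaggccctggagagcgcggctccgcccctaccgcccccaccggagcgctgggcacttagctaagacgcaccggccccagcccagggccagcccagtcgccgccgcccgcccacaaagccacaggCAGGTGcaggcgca
CLDN4: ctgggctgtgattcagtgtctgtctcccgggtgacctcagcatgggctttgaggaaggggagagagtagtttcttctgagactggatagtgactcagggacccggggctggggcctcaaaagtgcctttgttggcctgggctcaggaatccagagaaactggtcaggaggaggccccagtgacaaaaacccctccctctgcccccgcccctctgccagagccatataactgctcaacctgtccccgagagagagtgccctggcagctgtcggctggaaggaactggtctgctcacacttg
KRT5: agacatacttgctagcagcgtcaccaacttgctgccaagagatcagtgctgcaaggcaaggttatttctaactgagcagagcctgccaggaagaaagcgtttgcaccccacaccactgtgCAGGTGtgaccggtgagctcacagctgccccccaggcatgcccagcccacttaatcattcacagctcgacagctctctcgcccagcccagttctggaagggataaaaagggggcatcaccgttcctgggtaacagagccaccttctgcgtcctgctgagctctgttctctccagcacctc
CDH2: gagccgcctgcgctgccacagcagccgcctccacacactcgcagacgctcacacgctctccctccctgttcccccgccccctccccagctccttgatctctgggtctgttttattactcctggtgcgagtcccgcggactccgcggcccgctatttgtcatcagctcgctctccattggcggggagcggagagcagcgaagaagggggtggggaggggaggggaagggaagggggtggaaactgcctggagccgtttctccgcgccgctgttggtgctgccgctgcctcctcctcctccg
The motif occurs once in the window of CLDN3 and once in that of KRT5, and 0 times in the windows of CLDN4, CDH2, KRT8 and VIM, where 20.6% of all 35116 windows of 300 bases hold it. The window of KRT8, chr12:52926420-52926719 (minus strand), and those of CLDN4 and CDH2 lie inside the gene spans and not at their outer ends. Other starts of these genes were not examined. The neighbouring claudins differ in base composition, with 24 CpG dinucleotides and 72.0% G or C in CLDN3 against 5 and 59.0% in CLDN4. The window of CDH2 has 23 CpG dinucleotides and that of KRT5 has 7, where the median of all windows is 14. A match is a description of the letters and does not show a site in use.

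The order of the genes by level depends on the length they are divided by. Per kilobase of all annotated exons, CDH1 was the highest (137.5 CPM per kilobase, mean of the 4 libraries), followed by KRT18 (113.7), EPCAM (112.3), CLDN3 (92.4), KRT8 (84.8) and CLDN4 (50.3). VIM (0.601) and KRT19 (0.260) were far below, and 96.0% or more of all genes tested had a lower level than each of the first 6. KRT18 and EPCAM did not differ beyond their spread across libraries, and neither did CLDN3 and KRT8. The exon length in the table is the union over all annotated transcripts, which is 6881 bases for KRT8 and 4699 bases for CLDN4, while a single reference transcript has 1784 and 1695 bases. Divided by the length of that transcript, a calculation added after the data were seen, KRT8 was the highest (327.0 CPM per kilobase), followed by KRT18 (246.9), EPCAM (176.5), CDH1 (173.7), CLDN4 (139.4) and CLDN3 (92.4). EPCAM and CDH1 overlapped across libraries on this scale. KRT8 had more than KRT18 in each library on this scale, and less in each library on the other. The same division does not touch the comparison of a gene between groups.

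**Figure D2:**
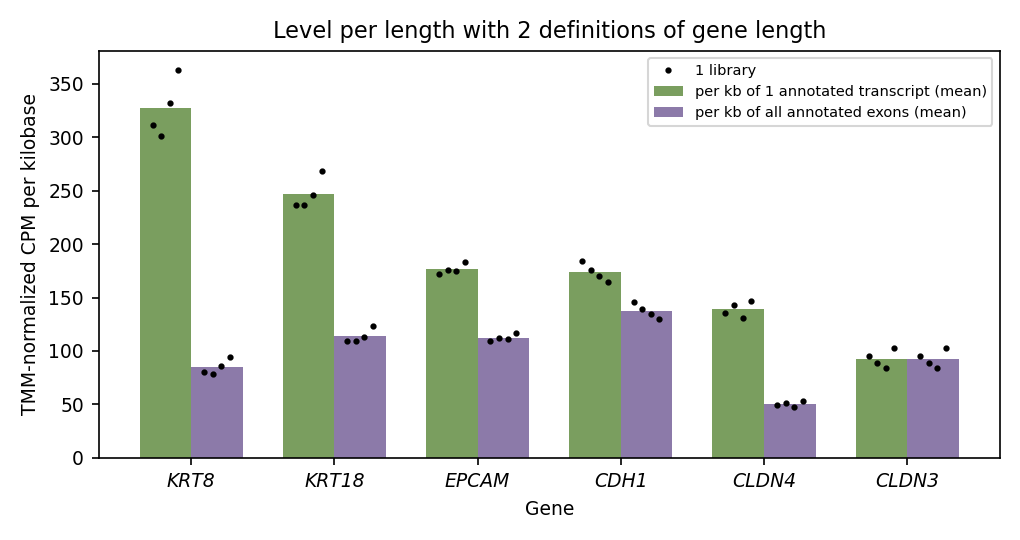
Mean level of the 6 abundant genes over the 4 libraries, in TMM-normalized CPM per kilobase, with bars for the length of 1 annotated transcript (green) and for all annotated exons (purple) and a dot for each library. KRT8 is the highest at 327.0 with the first length and the fifth at 84.8 with the second, while CLDN3, with a single annotated transcript, is at 92.4 with both.

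Of the 8 tested genes, 0 were called higher and 0 lower after siLOC730101 at an adjusted p under 0.05 in edgeR, where 0.212% of all genes tested were called higher and 0.0724% lower. At an unadjusted p under 0.05 the number was 1 of 8 in edgeR and 1 of 8 in DESeq2, KRT8 in both. DESeq2 called 0 of them after adjustment and gave no adjusted p for KRT19 and VIM. The libraries of the groups did not overlap for 5 of the 8 genes, higher in siLOC730101 for KRT8, KRT18, KRT19 and VIM and lower for CDH1. Among all genes tested this was so for 41.7%, and with 2 against 2 libraries the smallest two-sided p of an exact permutation test is 0.333. The median log2 fold change of the 8 genes was 0.081, against -0.0021 for all genes tested. For the 6 abundant genes each 95% interval lay inside a 1.5-fold change in either direction, and for KRT19 and VIM it did not.

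**Figure D3:**
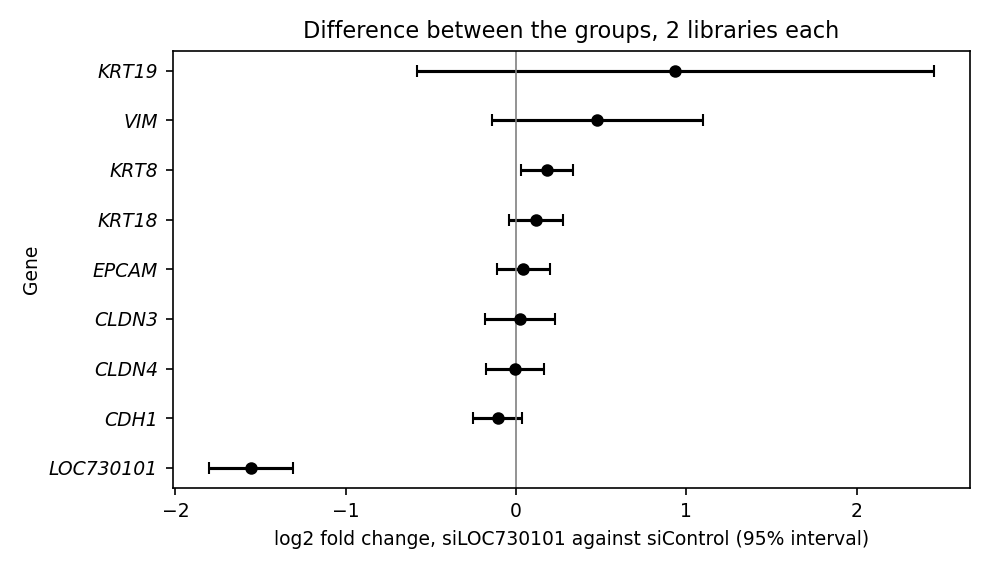
Log2 fold change of siLOC730101 against siControl for the 8 tested genes and for LOC730101, with 95% intervals from the edgeR fit and 2 libraries in each group. LOC730101 lies at -1.56, the intervals of CDH1, CLDN4, CLDN3, EPCAM and KRT18 cross 0, that of KRT8 runs from 0.029 to 0.34, and those of VIM and KRT19 are the widest.

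Genes that work with these 10 were examined in 10 lists, which hold 105 genes, 84 of them tested. Called at an adjusted p under 0.05 were 0 genes in edgeR and 0 in DESeq2, and the lowest adjusted p was 0.277 (edgeR). At an unadjusted p under 0.05 there were 8 genes higher and 4 lower, 14.3% of those tested, where 10.8% of all genes reached it. The median log2 fold change of the 84 genes was 0.026.

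Among 13 adherens junction genes, 11 were tested and 0 were called, with a median log2 fold change of -0.0074. The catenins that link E-cadherin to actin differed little, at -0.017 for CTNNA1, -0.0055 for CTNNB1 and 0.031 for JUP, which is also a desmosome gene. VCL, which binds actin at the junction, was at 0.076 and the nectin gene NECTIN1 at 0.22 (edgeR adjusted p = 0.328). Among 19 tight junction genes, 18 were tested and 0 were called, with a median of -0.037. CLDN7, a claudin that also binds EPCAM, was at 0.23 (edgeR adjusted p = 0.443), CRB3 at 0.10, CLDN12 at -0.050, F11R, the adhesion molecule JAM-A, at -0.21 (edgeR adjusted p = 0.380) and PATJ at -0.15. OCLN, the occludin gene, which is named here after its values were seen, had 2034 and 1282 counts with control siRNA and 814 and 1073 with siLOC730101. Its log2 fold change of -0.44 had an adjusted p of 0.317 in edgeR, and it passed the threshold without siControl replicate 2 (-0.64, edgeR adjusted p = 0.0085) and without siLOC730101 replicate 2 (-0.72, edgeR adjusted p = 0.000631). In those fits, each with a single library in the group concerned, 0.671% and 0.632% of all genes tested passed. All 10 desmosome genes were tested and 0 were called, with a median of 0.037. After JUP, the plaque and cadherin genes of the desmosome read highest were PKP3 (log2 fold change 0.14), DSG2 (0.039), DSP (-0.072) and EVPL (0.091). The 6 genes of hemidesmosomes and keratin linkers had a median of -0.10, with PLEC (plectin) at -0.045, EPPK1 at 0.038, ITGA6 at -0.19, DST at -0.18 and ITGB4 at -0.16, and 0 were called. COL17A1, the sixth and named after its values were seen, was at 0.67 from 14, 17, 18 and 21 counts, with a standard error of 0.85.

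Among 10 partners and proteases of EPCAM, all tested and 0 called, the median log2 fold change was 0.092. The tetraspanin gene CD9 was at 0.045, the protease inhibitor genes SPINT1 and SPINT2 at 0.15 and 0.14, and ADAM10, a sheddase, at -0.13. All 12 epithelial regulators were tested and 0 were called, with a median of 0.086. FOXA1, a pioneer factor of luminal prostate cells, was at 0.11, EHF at -0.12, SPDEF at 0.21 (edgeR adjusted p = 0.362), GRHL2 at 0.029 and the splicing regulator ESRP1 at -0.063. Without siLOC730101 replicate 1 there were 6 of 87 tested list genes past the threshold in edgeR, a share of 6.90% beside the 5.56% of all genes in that fit, namely CLDN7 (0.41), SPDEF (0.33), NECTIN1 (0.30), SPINT2 (0.25) and KRT8 (0.25) higher and FN1 (-0.21) lower. The simple keratins, of which 4 of 6 were tested, had a median of 0.15 with KRT20 at -1.01 from 42, 36, 12 and 18 counts, and KRT14 was the single one of 8 basal and stratified keratins tested, at 0.20.

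The repressors of epithelial genes were read at low levels. Of 9 mesenchymal regulators, 5 were tested and 0 were called, with a median log2 fold change of -0.22, and ZEB2 and TWIST2 had 0 counts in all libraries. SNAI1 had 94 and 120 counts with control siRNA and 42 and 32 with siLOC730101 (log2 fold change -1.20, ± 0.43 SE, edgeR adjusted p = 0.277). SNAI2 (0.38, edgeR adjusted p = 0.455) and TWIST1 (0.60, edgeR adjusted p = 0.426) were on the other side of 0, SNAI3 was at -0.36, and ZEB1 had between 2 and 31 counts. The libraries of the groups did not overlap for 4 of the 5, lower for SNAI1 and SNAI3 and higher for SNAI2 and TWIST1, where 41.7% of all genes tested did not overlap. Of 15 mesenchymal genes, 9 were tested and 0 were called, with a median of -0.13. FN1, the fibronectin gene, was the one read at a high level, with 85.4 CPM per kilobase and a log2 fold change of -0.13 (edgeR adjusted p = 0.548). The next, ITGA5 (3.77 CPM per kilobase, log2 fold change 0.054), COL1A1 (1.36, -0.16), TAGLN (1.23, -0.40) and S100A4 (0.795, 0.30), did not pass the threshold either.

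**Figure D4:**
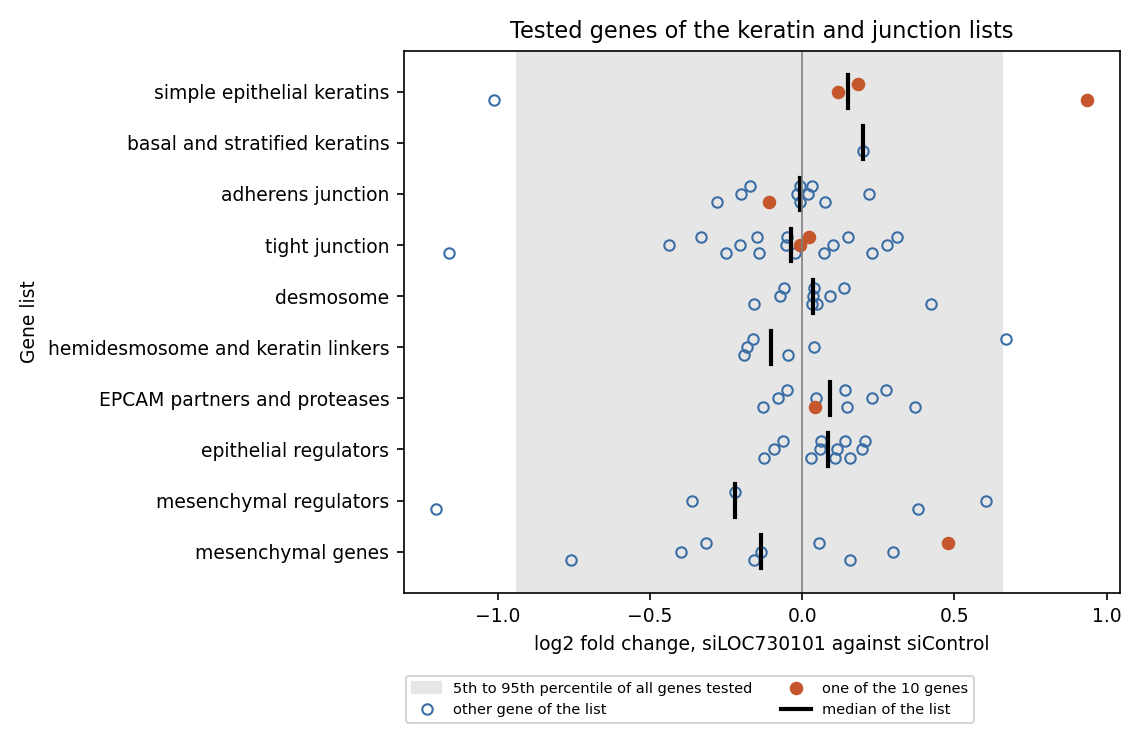
Log2 fold change of siLOC730101 against siControl for each tested gene of the 10 lists, with the genes of the opening in orange, other list genes as open blue circles, list medians as black bars, and the 5th to 95th percentile of all genes tested (-0.94 to 0.66) in grey. A gene in 2 lists is drawn in both. The medians lie between -0.22 for the mesenchymal regulators and 0.20 for KRT14, the single basal keratin tested.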

How the data were processed

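RNA of DaroR cells was measured in 2 siControl and 2 siLOC730101 libraries. After read trimming with Trim-galore, the authors deposited raw counts per gene name from featureCounts 2.0.1, without normalization. The aligner is STAR in the methods and BWA in the submitters' processing notes. The file header names hg38 and gencode 41, the methods hg19 and an earlier release, and the positions given are those of the table. Without paired-end, strand or multi-mapping options in the command, mates appear to be counted apart (66.0% to 70.1% of counts from 1 to 20 were even), and a read placed at several positions is left out only where the aligner marks it as such. The table also holds the exon length. No row lacked a gene name, and 0 columns of other samples were found.

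Counts were tested in R 4.3.3 with edgeR 4.0.16: filterByExpr at its defaults (minimum count 10), TMM, estimateDisp, and glmQLFit with the legacy method, condition as the only term, on all 19349 genes that passed. Intervals are the coefficient and its standard error with the moderated degrees of freedom. DESeq2 1.42.0 was an alternative. A chi-square over its degrees of freedom came to 8.96 between siControl and 10.3 between siLOC730101 libraries, so that libraries of a group differed beyond sampling noise. The fit was tested on simulated data. Lengths of 1 transcript came from the MANE or canonical transcript of a GRCh37 annotation, and promoter windows from RefSeq. Genes named are the 10 genes, LOC730101, list genes past the threshold, up to 5 further genes of each list with the highest mean level per length, and up to 3 copies of a keratin. Other names were chosen after their values were seen. The genes and lists were chosen with earlier results of these data known. Values of some single marker genes are not reported here.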

Additional observations from a re-analysis of the deposited data

How the results depend on the processing

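The 15 alternatives were DESeq2 size factors, upper-quartile factors, library size only, no filter beyond 1 count, a mean normalized count above 50, DESeq2, the legacy method off, a robust fit, the replicate block, each library left out, halved counts, and keratin copies added. KRT19 was removed by the filter at 50. Of 119 log2 fold changes of the tested genes, 110 kept their direction and their side of the threshold, 2 (KRT19 and VIM in DESeq2) kept their direction and had no adjusted p, 1 (KRT8) newly passed it, and 6 turned in sign: CLDN3 with upper-quartile factors (-0.010) and library size only (-0.018), and, when libraries were left out, CLDN3 (from -0.13 to 0.17) and CLDN4 (from -0.094 to 0.083). KRT8 ranged from 0.12 to 0.25 when libraries were left out. The number of the 10 genes called ranged from 0 to 1 without a library, and that of the list genes from 0 to 6. It was 1 list gene, OCLN, with no filter (edgeR adjusted p = 0.0288) and with the replicate block (edgeR adjusted p = 0.0118). Both settings also called more genes than the main fit across the whole table, with the numbers given next.

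Across the table, genes called higher and lower were 324 and 113 with no filter, 137 and 50 with a mean above 50, 234 and 63 in DESeq2, 87 and 24 with the legacy method off, 113 and 35 with halved counts and 485 and 167 with the replicate block, and 35 were lower with library size only. Without a library they ranged from 77 to 923 higher and from 26 to 272 lower. The cause of these changes was not tested. Same-numbered libraries did not deviate together (r = -0.00090 across genes), so the numbers were not taken as pairs. Levels per length moved by more than 1 SD in 14 of 16 cases with the length of 1 transcript and in 1 of 16 with library size only. At low counts the intervals were wide, as for KRT19 and VIM.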

Other observations

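Ratios of counts within a library, computed after the values of single genes were seen and given without a test, do not depend on the scaling of libraries. The counts of CDH1 were 1.60 and 1.57 times those of KRT8 in siControl and 1.38 and 1.22 times in siLOC730101. Against EPCAM, CDH1 had 3.34 and 3.11 times the counts in siControl and 3.03 and 2.78 times in siLOC730101. Both ratios were lower in both siLOC730101 libraries, and the lowest in siLOC730101 replicate 2. Both hold CDH1, and CDH1 was lower and KRT8 higher in both siLOC730101 libraries, so the ratio to KRT8 adds no separate observation. In the ratio to EPCAM the gap between the groups was smaller than the gap within either group. The ratio of CLDN4 to CLDN3 was 1.90 and 2.16 in siControl and 2.08 and 1.91 in siLOC730101, so that the groups overlapped.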
